A study of Homo sapiens with 12 samples.

Results

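Molecular chaperones were followed in human neurons after knockdown of *SMN* (*SMN*-KD), with every gene taken whose symbol names it a small heat shock protein (HSPB), an HSP70 or HSP110 protein (HSPA, HSPH), a mitochondrial chaperonin (HSPD, HSPE), an HSP90 protein, a J-domain protein (DNAJA, DNAJB, DNAJC), a BAG protein from BAG1 to BAG6, or the heat shock factors HSF1 and HSF2. These symbols took 85 of 16406 rows of the table for motor neurons, standing for 71 symbols, and 87 of 19016 rows of the table for glutamatergic neurons, standing for 75 symbols. Both tables held 78 of these identifiers, and either held 76 symbols.

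The motor neurons (iMNs) came from a human iPSC line carrying Td-Tomato under the HB9 promoter and were purified by FACS on that reporter. The glutamatergic neurons (i3Ns) came from H1 ES cells, an established human line, with inducible NGN2. Each cell type received a lentiviral inducible shRNA, either scrambled (SCR) or against *SMN1* and *SMN2*, and RNA-seq of total RNA after removal of ribosomal RNA followed 12 days of knockdown. There were 3 SCR and 3 *SMN*-KD libraries of each cell type, 12 in all. A single stem cell line gave each cell type, and nothing in the labels says that the 3 libraries of a group came from separate cultures, so the p-values measure the spread between these libraries, which may be technical.

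Chaperones bind unfolded or partly folded proteins and keep them from aggregating. HSP70 proteins bind and release their clients in a cycle of ATP hydrolysis, J-domain proteins deliver the clients and start that hydrolysis, and BAG and HSP110 proteins speed the exchange of nucleotide that ends it. HSP90 proteins act later on a narrower set of clients, small heat shock proteins hold unfolded clients without ATP, and HSF1 is the transcription factor that raises many of these genes in heat and other protein stress. Neurons also use HSP70 with dedicated J-domain proteins at synapses, where they refold SNARE proteins and strip clathrin from vesicles.

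The deposited tables, 1 per cell type, hold the authors' DESeq2 fold changes with their standard errors (SE) and a mean normalized count over the 6 libraries, so the mean of SCR and of *SMN*-KD was derived from that mean and the fold change. The fold changes appear shrunken toward 0 at low counts, so the derived means of such genes may lie closer together than the measured ones. Values per library and depths were not analysed here, and the SE carries the spread between libraries. A gene was called at an adjusted p under 0.01 with an absolute log2 fold change above 1, and is said to have risen or fallen where it passed that adjusted p. Summed over their identifiers, the targeted *SMN1* and *SMN2* fell by 77.9% in iMNs (1923 to 424 normalized counts) and by 82.7% in i3Ns (1839 to 318). All 8 motor neuron markers looked for were listed in both cell types, so being listed does not tell them apart. In iMNs, *SLC18A3* and *SLC5A7* of cholinergic neurons had mean normalized counts of 3115 and 8460.5. Lower there were *MNX1* at 430, *ISL2* at 71 and *LHX3* at 15. The i3N table held the glutamate transporter gene *SLC17A7* at 6489.7, and it also held the motor neuron genes *ISL1* at 14299 and *MNX1* at 2279. In these bulk samples, fewer cells of a type and less RNA per cell cannot be told apart. Reads can be split between near-identical copies, and 17 of the 94 member identifiers, from *BAG6*, *HSPA1A*, *HSPA1B*, *HSPA1L* and *DNAJA3*, have no position in the main annotation of GENCODE release 44.

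In iMNs, 26 of 85 member identifiers rose (30.6%, against 17.1% of all genes in the table) and 11 fell (12.9%, against 18.7%). In i3Ns, 19 of 87 rose (21.8%, against 22.8%) and 29 fell (33.3%, against 25.7%). These shares of all genes also stand beside the counts of smaller lists below. The median log2 fold change of the member symbols was 0.09 in iMNs and -0.02 in i3Ns, against 0.0013 and 0.010 over all genes. Counted with the fold threshold, 2 members rose and 2 fell in iMNs (2.35% each, against 0.969% and 2.37% of all genes). In i3Ns, 1 rose and 3 fell (1.15% and 3.45%, against 4.23% and 9.53%). Most members therefore changed by less than the fold threshold, and *HSP90AA1* alone was called in both cell types in the same direction.

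**Figure D1:**
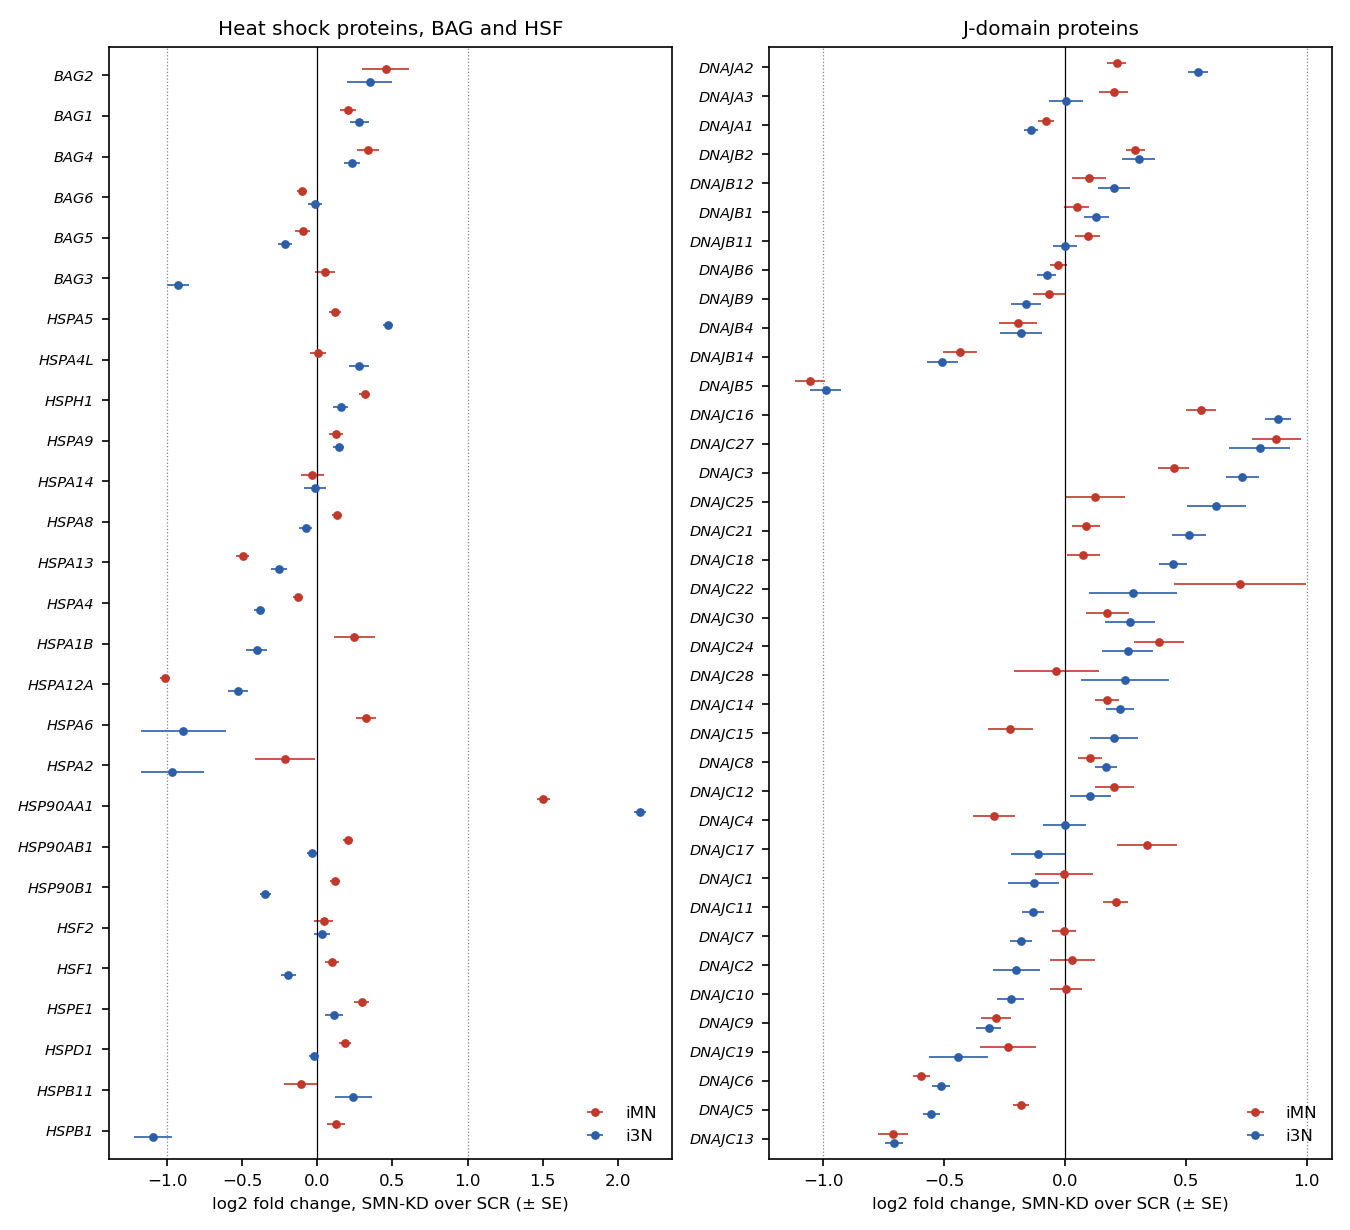
Log2 fold changes (*SMN*-KD over SCR, bars showing the SE) of the chaperone symbols that averaged 100 or more normalized counts in each table, in iMNs (red) and i3Ns (blue), with dotted lines at -1 and 1. *HSP90AA1* stands far to the right in both cell types at 1.51 and 2.15, and *HSPB1* and *BAG3* lie to the left in i3Ns and near 0 in iMNs.

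*HSP90AA1* (ENSG00000080824; GRCh38 chromosome 14, 102080742 to 102139699, minus strand) encodes HSP90 alpha, the stress-inducible cytosolic form. It rose from 34744 (SCR) to 98667 (*SMN*-KD) normalized counts (log2 fold change 1.51, SE 0.04, adjusted p = 1.55e-252) in iMNs, a fold of 2.84. In i3Ns it rose from 18192 to 80714 (log2 fold change 2.15, SE 0.04, adjusted p listed as 0), a fold of 4.44. Of the genes averaging 1000 or more normalized counts, 3 of 7733 in iMNs and 9 of 7767 in i3Ns rose at least as far, *HSP90AA1* included. The rise was larger in i3Ns by 0.64 on the log2 scale (SE 0.06, adjusted p = 1.24e-25 by a Wald z of the difference).

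The other HSP90 genes had smaller log2 fold changes. *HSP90AB1* (ENSG00000096384), the constitutive cytosolic form, had 65889 normalized counts in SCR and 75807 in *SMN*-KD iMNs, a log2 fold change of 0.20 (adjusted p = 1.32e-08). In i3Ns its values were 77159.8 and 75394, a log2 fold change of -0.03 (adjusted p = 0.454). Per kilobase of the MANE Select transcript, *HSP90AA1* stood at 0.417 of the level of *HSP90AB1* in SCR iMNs and at 1.03 in *SMN*-KD iMNs. In i3Ns the ratio was 0.187 in SCR and 0.847 in *SMN*-KD. *HSP90B1* (ENSG00000166598), the HSP90 of the endoplasmic reticulum known as GRP94, rose slightly in iMNs at 0.12 (adjusted p = 0.00216) and fell in i3Ns at -0.35 (adjusted p = 1.12e-19).

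The promoter of *HSP90AA1* holds a heat shock element, the binding motif of HSF1, so the promoters of the members were searched for it. The motif searched was 3 units, GAA, TTC and GAA, each parted from the next by any 2 bases, on either strand of the 250 bases before and 50 bases after each RefSeq start. It was found for 7 of 66 members with a promoter (10.6%) and for 166 of all 27305 genes (0.608%). Only exact matches in this window were taken. *HSPA1A*, *HSPA1B*, *HSPA4L*, *HSPB1*, *HSPH1*, *HSPE1*, *DNAJB1*, *DNAJB4* and *BAG3*, read below as HSF1 targets, had none. The absence of a match therefore does not show that a gene lacks a heat shock element. The elements are shown to let the promoters of *HSP90AA1* and of the other members be compared, with the motif in capitals, on the gene's strand 5′ to 3′, from RefSeq on GRCh38.p14. Coordinates are those of the printed bases, and overlapping matches are joined.
DNAJA1 (chr9:33025268-33025296, plus strand): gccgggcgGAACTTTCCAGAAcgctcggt
DNAJB6 (chr7:157336865-157336893, plus strand): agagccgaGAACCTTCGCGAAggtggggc
HSP90AA1 (chr14:102087112-102087140, minus strand): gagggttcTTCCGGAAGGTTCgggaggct
HSP90AB1 (chr6:44247770-44247798, plus strand): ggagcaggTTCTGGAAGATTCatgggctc
HSP90AB1 (chr6:44247823-44247851, plus strand): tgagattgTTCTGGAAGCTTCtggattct
HSPA6 (chr1:161524458-161524486, plus strand): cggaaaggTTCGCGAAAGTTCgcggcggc
HSPA8 (chr11:123062171-123062199, minus strand): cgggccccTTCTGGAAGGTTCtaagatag
HSPA8 (chr11:123062346-123062374, minus strand): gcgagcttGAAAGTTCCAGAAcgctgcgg
HSPD1 (chr2:197500062-197500090, minus strand): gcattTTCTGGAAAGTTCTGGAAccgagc
Of the 7 genes with an element, 5 rose and 0 fell in iMNs, with a median log2 fold change of 0.18, while 1 rose and 2 fell in i3Ns, with a median of -0.08. Over all listed genes with an element, at any count, 13 of 58 rose and 11 fell in iMNs (median 0.04). In i3Ns, 15 of 64 rose and 19 fell (median -0.02). *HSPA8* and *HSP90AB1* had 2 matches each and *HSP90AA1* had 1, and each of these genes rose in iMNs. In i3Ns *HSP90AA1* rose, and *HSPA8* and *HSP90AB1* did not pass the adjusted p. *DNAJA1* and *HSPA6*, with 1 match each, fell in i3Ns. The part of the elements in these changes was not tested. A match is a description of the letters and not of binding.

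Heat-inducible genes were then read as a list of 13 known HSF1 targets. They were *HSPA1A*, *HSPA1B*, *HSPA8*, *HSPA4L*, *HSPB1*, *HSPH1*, *HSP90AA1*, *HSPD1*, *HSPE1*, *DNAJA1*, *DNAJB1*, *DNAJB4* and *BAG3*. *HSPA6*, described below, was not in the list. In iMNs, 6 rose and 0 fell (17.1% and 18.7% of all genes did), with a median of 0.12. In i3Ns, 3 rose and 5 fell (22.8% and 25.7% of all genes did), with a median of -0.08. *DNAJB1* (ENSG00000132002), the J-domain partner of inducible HSP70, changed by 0.05 (adjusted p = 0.471) in iMNs and 0.13 (adjusted p = 0.0174) in i3Ns. *HSPA1A* and *HSPA1B*, the inducible HSP70 genes, are near-identical and appear under 7 identifiers in each table, so their derived means were summed. In iMNs the sum was 35686 normalized counts in SCR and 37963 in *SMN*-KD (log2 ratio 0.09), and in i3Ns it was 19552 and 15490 (log2 ratio -0.34). *HSPH1* (ENSG00000120694), the HSP110 exchange factor, rose in both at 0.31 (adjusted p = 5.73e-16) and 0.15 (adjusted p = 0.00276). The mitochondrial chaperonin pair *HSPD1* and *HSPE1*, which share a promoter region, rose in iMNs at 0.18 (adjusted p = 5.38e-06) and 0.30 (adjusted p = 1.19e-08), and in i3Ns stood at -0.02 (adjusted p = 0.626) and 0.11 (adjusted p = 0.105). *HSF1* (ENSG00000185122) itself had a log2 fold change of 0.10 (adjusted p = 0.0584) in iMNs and fell in i3Ns at -0.19 (adjusted p = 1.23e-04), and *HSF2* (ENSG00000025156), a related factor, had 0.04 (adjusted p = 0.616) and 0.03 (adjusted p = 0.688). After *HSP90AA1*, the highest log2 fold changes of the list were those of *HSPH1* in iMNs and, in i3Ns, of *HSPA4L*, an HSP110-type protein, at 0.28.

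**Figure D2:**
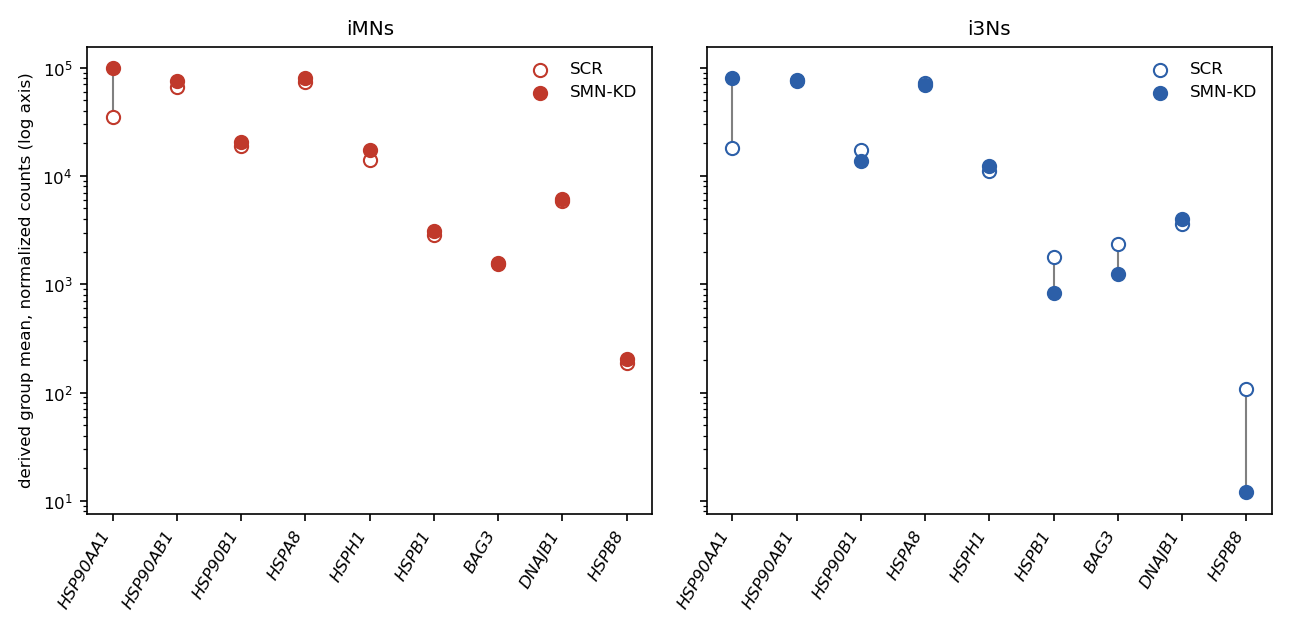
Derived mean normalized counts, on a log axis, of 9 chaperone genes in SCR (open) and *SMN*-KD (filled) for iMNs and i3Ns, with no error bars because the tables give none per group. *HSP90AA1* rises from 18192 to 80714 in i3Ns while *HSP90AB1* and *HSPA8* hardly move, and *HSPB8* drops from 107 to 12.

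*HSPA8* (ENSG00000109971), the constitutive cytosolic HSP70 and per kilobase the most abundant member in SCR of both cell types, rose in iMNs from 73464 to 80469 normalized counts, a log2 fold change of 0.13 (adjusted p = 7.35e-04). In i3Ns it was 72278 in SCR and 68525 in *SMN*-KD, a log2 fold change of -0.08 (adjusted p = 0.118). *HSPA12A* (ENSG00000165868; GRCh38 chromosome 10, 116671192 to 116850251, minus strand), a distant relative of HSP70 that is abundant in brain, fell from 13555 (SCR) to 6713 (*SMN*-KD) normalized counts (log2 fold change -1.01, SE 0.03, adjusted p = 9.57e-194) in iMNs and from 5526 (SCR) to 3834 (*SMN*-KD) normalized counts (log2 fold change -0.53, SE 0.07, adjusted p = 1.33e-14) in i3Ns. *HSPA4* and *HSPA13* fell in both cell types as well, *HSPA4*, an HSP110-type exchange factor, at -0.13 and -0.38, and *HSPA13*, a microsomal HSP70 relative, at -0.50 and -0.25. *HSPA2*, an HSP70 known from testis, had a log2 fold change of -0.22 (adjusted p = 0.252) in iMNs and fell in i3Ns at -0.97 (adjusted p = 3.22e-06), just outside the fold threshold. *HSPA6* (ENSG00000173110), an HSP70 gene with strict heat inducibility, went in opposite directions. It rose from 2663 (SCR) to 3338 (*SMN*-KD) normalized counts (log2 fold change 0.33, SE 0.07, adjusted p = 2.28e-06) in iMNs and fell from 139.9 (SCR) to 75.3 (*SMN*-KD) normalized counts (log2 fold change -0.89, SE 0.29, adjusted p = 0.00123) in i3Ns. *HSPA5* (ENSG00000044574), BiP of the endoplasmic reticulum, rose in both at 0.12 (adjusted p = 0.00664) and 0.47 (adjusted p = 2.80e-44). Of 15 HSP70 and HSP110 symbols measured, 5 rose and 3 fell in iMNs, and 4 rose and 8 fell in i3Ns.

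Of 8 small heat shock genes with HSPB symbols looked for, 4 were measured in iMNs, where 1 rose, and 7 in i3Ns, where 2 fell. *CRYAB*, which encodes a further small heat shock protein and lies outside the symbols used, fell in iMNs at -0.79 (adjusted p = 7.62e-09). *HSPB1* (ENSG00000106211; GRCh38 chromosome 7, 76302673 to 76304295, plus strand), mutated in inherited motor neuropathy, had 2843 normalized counts in SCR and 3099.7 in *SMN*-KD iMNs, a log2 fold change of 0.12 (adjusted p = 0.0816). In i3Ns it fell from 1788 (SCR) to 837 (*SMN*-KD) normalized counts (log2 fold change -1.09, SE 0.12, adjusted p = 1.21e-18). *HSPB8* (ENSG00000152137; GRCh38 chromosome 12, 119171555 to 119224855, plus strand), the partner of BAG3 in handing clients to autophagy, fell from 107 (SCR) to 12 (*SMN*-KD) normalized counts (log2 fold change -3.16, SE 0.41, adjusted p = 3.62e-15) in i3Ns, and in iMNs had 188 and 206, a log2 fold change of 0.13 (adjusted p = 0.456). *BAG3* (ENSG00000151929; GRCh38 chromosome 10, 119651380 to 119677819, plus strand) fell from 2365 (SCR) to 1241 (*SMN*-KD) normalized counts (log2 fold change -0.93, SE 0.07, adjusted p = 9.24e-36) in i3Ns, just outside the fold threshold, and had 1531 and 1584 in iMNs, a log2 fold change of 0.05 (adjusted p = 0.583). The difference between cell types passed the test for each, at -3.29 (SE 0.43, adjusted p = 4.09e-13) for *HSPB8*, -1.22 (SE 0.14, adjusted p = 2.15e-17) for *HSPB1* and -0.98 (SE 0.10, adjusted p = 1.33e-21) for *BAG3*. Markers of mesenchymal and contractile cells were read beside these results. Of 8 such markers, 6 were called as fallen in i3Ns, while *ACTA2* rose at 0.64. The summed derived mean of the 8 went from 12882 in SCR to 2091 in *SMN*-KD, and that of *COL1A1* alone from 7795 to 660. In iMNs, 7 of the markers were listed (all but *DCN*), 5 rose and the sum went from 2187 to 3761. *MKI67*, a marker of dividing cells, had a log2 fold change of -3.15 in i3Ns, where 5 of 6 markers of dividing progenitors fell. The part of these cells in the fall of *HSPB1*, *HSPB8* and *BAG3* was not tested. *HSPB7*, a small heat shock protein known from heart, was called in iMNs at a low mean, 1.21 (adjusted p = 0.00444) with 18.5 and 42.8 normalized counts, and its 95% interval ran from 0.07 to 2.35. Of the BAG genes, *BAG1* and *BAG4* rose in both cell types, at 0.21 and 0.34 in iMNs and 0.28 and 0.23 in i3Ns.

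Of 39 J-domain symbols listed in iMNs, 11 rose and 7 fell, where 17.1% of all genes rose and 18.7% fell. Of 40 in i3Ns, 11 rose and 12 fell, where 22.8% of all genes rose and 25.7% fell. Of the 4 synaptic and endocytic members, 3 fell in each cell type. *DNAJC6* (ENSG00000116675), auxilin, which brings HSPA8 to clathrin-coated vesicles, fell from 13552 (SCR) to 8981 (*SMN*-KD) normalized counts (log2 fold change -0.59, SE 0.04, adjusted p = 3.76e-60) in iMNs and from 13215 (SCR) to 9268 (*SMN*-KD) normalized counts (log2 fold change -0.51, SE 0.04, adjusted p = 3.44e-40) in i3Ns. *DNAJC13* (ENSG00000138246), a J-domain protein of endosomes, fell at -0.71 (adjusted p = 7.41e-30) in iMNs and -0.71 (adjusted p = 1.38e-78) in i3Ns. *DNAJC5* (ENSG00000101152), cysteine string protein of synaptic vesicles, fell at -0.18 (adjusted p = 2.07e-07) in iMNs and further in i3Ns at -0.55 (adjusted p = 1.21e-52), a difference of -0.37 (SE 0.05, adjusted p = 4.80e-13). Their HSP70 partner *HSPA8* completes this list, and its medians were -0.39 and -0.53. *GAK*, an endocytic J-domain gene outside the symbols used, was at -0.0013 (adjusted p = 0.987) in iMNs. In i3Ns it fell slightly, at -0.13 (adjusted p = 0.0072). Of 6 general neuronal markers, 5 fell in iMNs and 4 in i3Ns, while *RBFOX3* rose in iMNs at 0.35 (adjusted p = 1.85e-05). The summed derived mean went from 322408 to 271145 in iMNs and from 272736 to 228788 in i3Ns. The markers moved unevenly in iMNs, *TUBB3* from 70957 to 45766 and *MAP2* from 115892 to 109624. The part of these marker changes in the J-domain falls was not tested.

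Among J-domain genes the deepest fall in iMNs was that of *DNAJB5* (ENSG00000137094; GRCh38 chromosome 9, 34989641 to 34998900, plus strand), which fell from 4870.0 (SCR) to 2343 (*SMN*-KD) normalized counts (log2 fold change -1.06, SE 0.06, adjusted p = 6.35e-64) in iMNs and from 4093 (SCR) to 2062 (*SMN*-KD) normalized counts (log2 fold change -0.99, SE 0.06, adjusted p = 3.16e-53) in i3Ns, on either side of the fold threshold. *DNAJB14* of the endoplasmic reticulum membrane and *DNAJC9*, a histone chaperone, also fell in both, at -0.43 and -0.28 in iMNs and -0.51 and -0.32 in i3Ns. *DNAJA4* was called in i3Ns, at -1.03 (adjusted p = 9.62e-09), and stood at -0.50 (adjusted p = 0.0262) in iMNs, and the difference did not pass the test (adjusted p = 0.198). The largest rises among J-domain genes that rose in both cell types were those of *DNAJC27*, a small GTPase with a J domain, at 0.88 (adjusted p = 1.36e-17) and 0.81 (adjusted p = 1.77e-10), and *DNAJC16*, a J-domain protein of the endoplasmic reticulum, at 0.56 (adjusted p = 3.71e-19) and 0.88 (adjusted p = 2.07e-57). *DNAJC3*, which is known as p58IPK and acts with BiP, rose at 0.45 and 0.73, *DNAJA2*, a cytosolic partner of HSP70, at 0.21 and 0.55, and *DNAJB2*, a neuron-enriched J-domain protein mutated in inherited motor neuropathy, at 0.29 and 0.30.

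Members of the endoplasmic reticulum and of mitochondria gave mixed directions. For the endoplasmic reticulum, a list of 9 was read, *HSPA5*, *HSP90B1*, *HSPA13*, *DNAJB9*, *DNAJB11*, *DNAJC1*, *DNAJC3*, *DNAJC10* and *DNAJC25*. Of these, 3 rose and 1 fell in iMNs, and 3 rose and 3 fell in i3Ns. The list does not hold every such member. *DNAJB14*, which fell in both cell types, and *DNAJC16*, which rose in both, were not in it. Of 8 in mitochondria, 4 rose and 0 fell in iMNs, and 1 rose and 2 fell in i3Ns. Among all genes, 17.1% rose and 18.7% fell in iMNs, and 22.8% rose and 25.7% fell in i3Ns. *DNAJC11*, a protein of the mitochondrial membranes, rose in iMNs at 0.21 (adjusted p = 1.28e-04) and fell in i3Ns at -0.13 (adjusted p = 0.0075). A motif for the endoplasmic reticulum stress response, CCAAT and CCACG parted by any 9 bases on either strand, stood in the promoters of *HSPA5* and *HSP90B1* among the members and of 25 of all 27305 genes (0.0916%). Both genes rose in iMNs, and in i3Ns *HSPA5* rose while *HSP90B1* fell. Over all listed genes with this motif, at any count, 8 of 17 rose and 2 fell in iMNs, and 7 of 17 rose and 5 fell in i3Ns. Of 8 genes of inherited neuromuscular disease (*HSPB3* was not listed), 2 rose and 1 fell in iMNs, and 2 rose and 4 fell in i3Ns.

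Over both tables, 23 of 78 identifiers passed the adjusted p in both, of which 11 rose in both (14.1%, against 11.0% of all genes), 9 fell in both (11.5%, against 13.1%) and 3 went in opposite directions, *HSP90B1*, *HSPA6* and *DNAJC11*. The difference between cell types, by the Wald z over 16093 genes, was passed by 27 of 78 identifiers (34.6%), against 34.0% of all genes. Of these 27, 12 were higher in i3Ns and 15 lower.

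**Figure D3:**
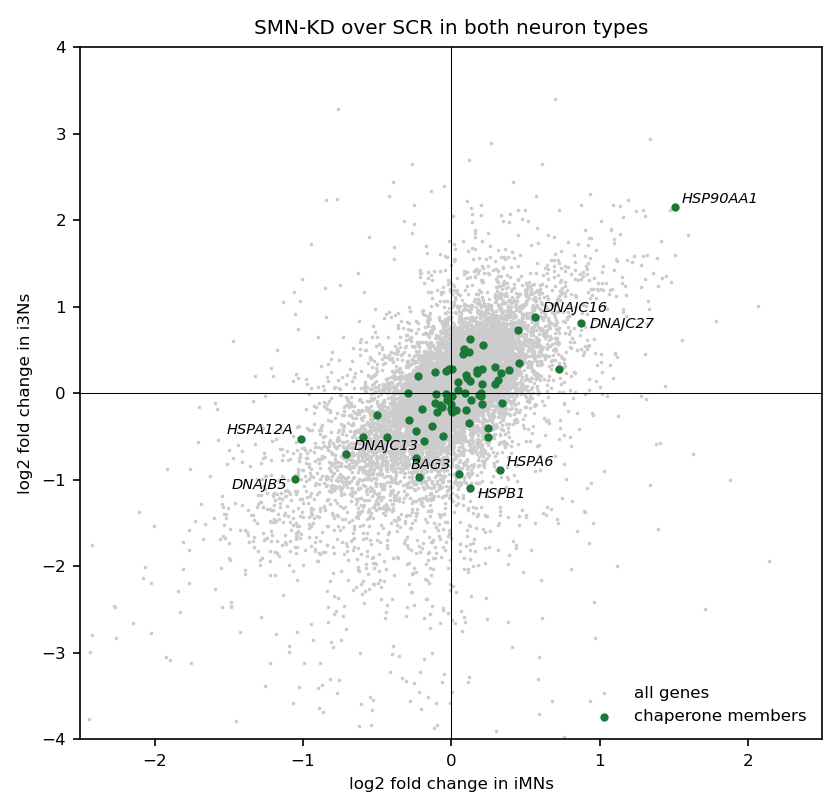
Log2 fold change in i3Ns against that in iMNs for the 12071 genes averaging 100 or more normalized counts in each table (grey) and the 71 chaperone identifiers among them (green), with 16 genes and no member outside the axes. *HSP90AA1* is the member farthest to the upper right, and *HSPB1* and *HSPA6* lie in the lower right, with log2 fold changes above 0 in iMNs and below 0 in i3Ns.

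The shRNA guides were also read against the members. Taking each guide as the reverse complement of the target given in the study's methods, starting at the target's 3′ end, the matches to guide bases 2 to 8 and 3 to 9 were searched in the MANE Select 3′-UTRs of GENCODE release 44. The 5′ ends of the guides were not measured here. The letters searched were CTAATAA and GCTAATA for the *SMN* guide and CTAGTAA and ACTAGTA for the scrambled guide. The sites given next are all those in members described above, with the 7-base match in capitals and its coordinates on GRCh38. Those in *BAG2* and *HSPA9*, which rose with an *SMN* guide match, are also given. *DNAJC18* rose with such a match too, in i3Ns, and its site is not shown. In *BAG2*, matches to both stretches of the guide overlap at 1 site, which is shown once.
HSP90AA1 (chr14:102081519-102081525, minus strand): taaagcagagCTAGTAAtgctttttga
DNAJC27 (chr2:24944479-24944485, minus strand): atacctataaACTAGTAcctaattcac
HSPH1 (chr13:31135097-31135103, minus strand): tgatatatacCTAGTAAtcatcgagga
DNAJB14 (chr4:99898105-99898111, minus strand): ctttaattacACTAGTAtgtaaagtag
DNAJB14 (chr4:99898375-99898381, minus strand): ttgaattcatCTAATAAgtgaaaataa
HSPA12A (chr10:116671211-116671217, minus strand): tcacagacgcCTAATAAagcaaaactc
HSPA12A (chr10:116671396-116671402, minus strand): tgagtggatgGCTAATAtaaaagttgt
DNAJB5 (chr9:34997616-34997622, plus strand): cctcagctttGCTAATAccagtcccct
BAG3 (chr10:119677419-119677425, plus strand): aggcaaaacaCTAATAAaagggctaaa
DNAJC5 (chr20:63934020-63934026, plus strand): tctgtaaaacCTAATAAatcatggttg
HSPA4 (chr5:133106420-133106426, plus strand): ttaggaaaaaCTAATAAaataaacctg
HSPA13 (chr21:14373198-14373204, minus strand): tcacatgtaaCTAATAAtttgaactat
BAG2 (chr6:57187609-57187615, plus strand): gaaaagtatgCTAATAAttaacaatat
BAG2 (chr6:57189368-57189374, plus strand): ttagttaagaCTAATAAtaatattttt
HSPA9 (chr5:138554820-138554826, minus strand): tgatgtagttCTAATAAttatcatgtg
HSPA9 (chr5:138554141-138554147, minus strand): tatcagtaaaGCTAATAgcataaatag
The first 4 lines are matches to the scrambled guide and the rest are matches to the *SMN* guide, and each lies in the last exon of its transcript. *DNAJB14* holds matches to both guides.

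Of the members averaging 100 or more normalized counts, 11 had only *SMN* guide matches, and of these 1 rose and 5 fell in iMNs (median -0.18) and 2 rose and 7 fell in i3Ns (median -0.38). Over all genes of that level with only *SMN* guide matches, 163 of 1778 rose and 880 fell in iMNs (median -0.21), and 325 of 1786 rose and 988 fell in i3Ns (median -0.29). The members that rose with such a match were *BAG2*, a BAG co-chaperone of HSP70, at 0.46 (adjusted p = 0.0027) in iMNs, and, in i3Ns, *HSPA9*, the mitochondrial HSP70, at 0.14 (adjusted p = 2.44e-04) and *DNAJC18*, a J-domain protein, at 0.45 (adjusted p = 9.56e-14). The 3 members with only scrambled guide matches, *HSP90AA1*, *DNAJC27* and *HSPH1*, rose in both cell types. Over all genes with only scrambled guide matches, 398 of 851 rose and 105 fell in iMNs (median 0.18), and 497 of 866 rose and 167 fell in i3Ns (median 0.32). Of the members with neither, 20 of 49 rose and 5 fell in iMNs (median 0.12), and 13 of 47 rose and 13 fell in i3Ns (median 0.0035). Over all genes with neither, 1940 of 8556 rose and 1615 fell in iMNs, and 2745 of 8597 rose and 2646 fell in i3Ns, with a median of 0.03 in both. A rise at least as large as that of *HSP90AA1* was found in iMNs for 3 of 1003 genes with its match to bases 2 to 8 (0.299%, itself included) and for 6 of 8556 genes with neither guide's match (0.0701%). In i3Ns it was found for 10 of 1019 (0.981%) and 21 of 8597 (0.244%). *HSP90AA1* itself set this cutoff, and some genes with its match may also match the *SMN* guide. These shares are therefore a description and not a test. *DNAJC6*, *DNAJC13*, *DNAJC16*, *HSPB1* and *HSPB8* held neither match. The part of these matches in the changes was not tested.

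**Figure D4:**
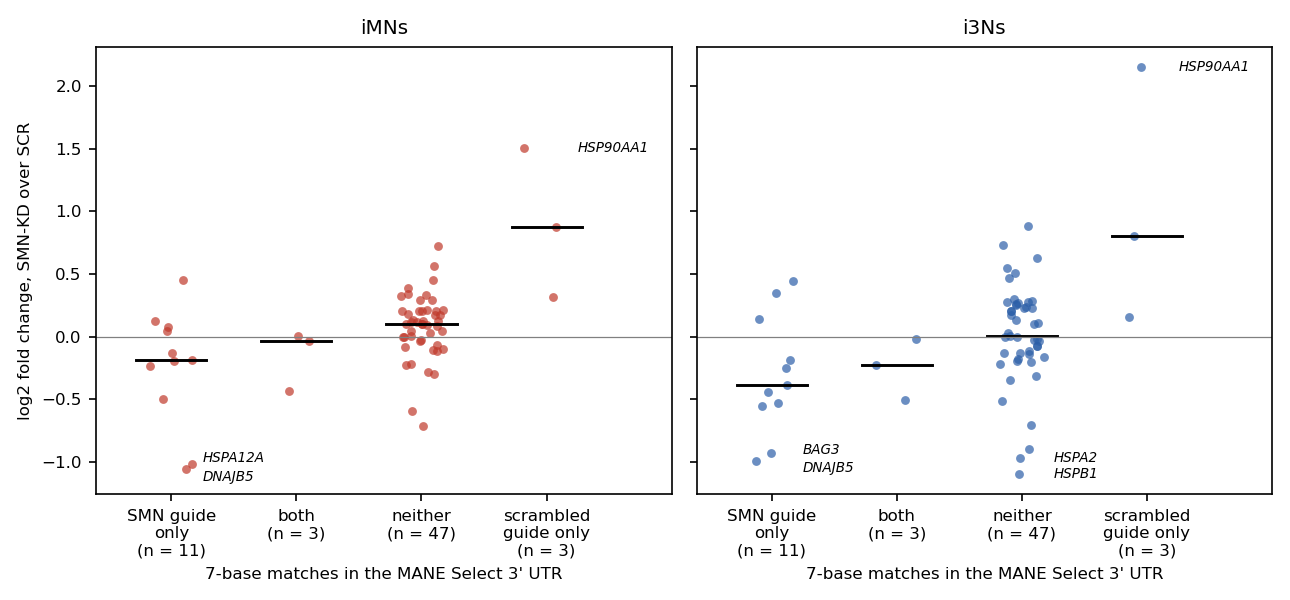
Log2 fold changes of the chaperone symbols that averaged 100 or more normalized counts in each table, grouped by 7-base matches to the shRNA guides in the 3′-UTR, with a black line at each median. Members with only scrambled guide matches lie above 0 in both cell types, and those with neither match spread on both sides of 0.

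Other chaperone genes were read from a list of 40 genes, mostly co-chaperones, chaperonin subunits and prefoldins, with a few relatives of the members under other symbols. In iMNs, 14 of 40 rose and 5 fell, and in i3Ns, 9 of 39 rose and 18 fell, with medians of 0.07 and -0.09. *PTGES3*, the p23 co-chaperone of HSP90, fell at -0.20 in iMNs and -0.90 in i3Ns. *FKBP5*, an HSP90 co-chaperone raised by glucocorticoids, fell at -0.91 and -1.94. *CDC37*, which brings kinases to HSP90, was at 0.11 (adjusted p = 0.0106) in iMNs and fell at -0.26 in i3Ns, and *AHSA1*, which speeds its ATP hydrolysis, was at 0.02 (adjusted p = 0.756) and 0.00 (adjusted p = 0.997). Of the prefoldin subunits, *VBP1* rose in both at 1.04 and 1.27 and *PFDN6* fell in both at -1.77 and -1.82. Of the relatives, *CRYAB*, the small heat shock protein alpha B-crystallin, fell in iMNs at -0.79 and was not listed in i3Ns. *HSF4*, a heat shock factor, was at 0.05 (adjusted p = 0.828) in iMNs and fell in i3Ns at -0.84. *HYOU1*, an HSP110-type protein of the endoplasmic reticulum, was at 0.01 (adjusted p = 0.849) and fell in i3Ns at -0.33, and *TRAP1*, the mitochondrial HSP90, rose in iMNs at 0.32 and was at 0.01 (adjusted p = 0.941) in i3Ns.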

How the data were processed

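RNA-seq had been made from 12 libraries, 3 SCR and 3 *SMN*-KD for iMNs and for i3Ns. The authors used fastp for trimming, Salmon for quantification and DESeq2 to compare the groups of each cell type separately, and STAR is also named in the submitters' processing notes, with no versions. The deposited tables give a mean normalized count (a signal: counts divided by size factors, averaged over 6 libraries by the authors), the log2 fold change and its SE, and the deposited p-value with its adjustment. The fold changes appear shrunken: fold change over SE was a median share of 0.983 (iMNs) and 0.996 (i3Ns) of the z of the p-value for members with a mean of at least 1000, and 0.243 and 0.364 for those under 100. These columns are the authors' own comparison and were used as the starting point. A count test planned for raw counts could not be run, and no library could be left out.

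Group means were derived from the mean and fold change, which pulls them together where the fold change is shrunken. Differences between cell types were tested by a Wald z with Benjamini-Hochberg adjustment over 16093 genes, a step tested on simulated data. Tables were normalized separately, so levels were not compared across them. Genes named were the called members, the highest and most changed of each class, those opposite between cell types or differing most, and 11 known chaperones, while others were named after their values were seen. Members and lists were chosen with earlier results of these data known, and 1 gene of the list of other chaperones is not reported here. Positions are from GENCODE release 44 and GRCh38, the build the submitters name (hg38). Python 3.11.15, pandas 2.3.3 and scipy 1.17.1 were used. Alternatives changed the thresholds, the filter, the centring, the identifiers and the SE.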

Additional observations from a re-analysis of the deposited data

Results flagged for a closer look

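The fold change differed between the cell types for 27 identifiers by the Wald z test over all genes, each given here as the log2 fold change in i3Ns minus that in iMNs. Lower in i3Ns were *HSPB8* (-3.29), *HSPB1* (-1.22), *HSPA6* (-1.22), *BAG3* (-0.98), *HSP90B1* (-0.46), *DNAJC5* (-0.37), *DNAJC11* (-0.34), *HSF1* (-0.29), *HSPA4* (-0.26), *HSP90AB1* (-0.24), *HSPA8* (-0.21) and *HSPD1* (-0.21). The 3 *HSPA1B* identifiers had differences of -0.75, -0.65 and -0.44. Higher in i3Ns were *HSP90AA1* (0.64), *HSPA12A* (0.49), *DNAJC15* (0.43), *DNAJC21* (0.42), *DNAJC18* (0.37), *HSPA5* (0.35), *DNAJA2* (0.34), *DNAJC16* (0.32), *BAG6* identifier ENSG00000227761 (0.30), *DNAJC3* (0.28), *HSPA4L* (0.27) and *HSPA13* (0.25). With standard errors doubled, 7 of the 27 still differed, *HSPB8*, *HSPB1*, *BAG3*, *HSP90B1*, *HSP90AA1*, *HSPA5* and *DNAJC5*. The near-identical *HSPA1B* and *BAG6* identifiers can share reads, so their values are uncertain. Groups of 3 libraries are too small for a search for outlying libraries, and none was made.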

How the results depend on the processing

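No paired analysis was possible because values per library were not analysed here, and for the same reason no library was left out. The called members numbered 4 in each cell type. An absolute log2 fold change above 0.5 took this to 9 in iMNs and 22 in i3Ns, and no fold threshold took it to 37 and 48. Those past the adjusted p alone went from 37 to 11 in iMNs and from 48 to 19 in i3Ns with standard errors doubled, since doubling them weakens every p, and those whose fold change differs between cell types from 27 to 7. For the named genes, centring left all 62 values on their side of 0. With standard errors doubled, 22 of the 62 went from passing the adjusted p to not passing. The 62 include values that had not passed it before, so 22 is a larger share of those that had. These p-values came from fold change over SE, so shrinkage at low counts weakened them as well. Summed over identifiers, *BAG6* in i3Ns went from -0.0271 to 0.0425, and *HSPA1B* in iMNs stood at -0.034. The longest 3′-UTR raised members with a match from 17 to 20. The other alternatives kept the counts within 1.5 times the main count and moved the medians by less than the members' median SE. Weakly expressed members carry the largest errors, and those under a mean normalized count of 100 numbered 8 in iMNs and 12 in i3Ns.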
